A study of Homo sapiens with 6 samples.

Results

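Transcript levels of 10 genes of transforming growth factor beta (TGF-beta) signalling were followed, and signalling itself was not measured. The genes were TGFB1, TGFB2 and TGFB3 (ligands), TGFBR1, TGFBR2 and TGFBR3 (receptors), and SMAD2, SMAD3, SMAD4 and SMAD7 (SMADs). They were taken by name from the 62700 human genes of the deposited table, and all 10 were found. The cells were A549, a long-established epithelial line from a human lung adenocarcinoma, grown in RPMI-1640 with fetal bovine serum. The sgH2AC19 group (3 libraries) carries a guide RNA against H2AC19, a replication-dependent histone H2A gene, and is labelled a knockout derivative. The sgControl group (3 libraries) carries a control guide and is labelled wild type. Nothing in the labels says whether the knockout cells are 1 clone or a pool, or that each replicate was its own culture. The p-values therefore reflect only how these libraries vary, and part of that variation may be technical. The series title names angiogenesis in lung adenocarcinoma as the question, and the comparison was sgH2AC19 against sgControl.

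TGF-beta ligands are secreted as latent dimers, held by a propeptide and by latent TGF-beta binding proteins until integrins or proteases release them. The active ligand binds the type II receptor TGFBR2, which phosphorylates the type I receptor TGFBR1, while TGFBR3 (betaglycan) is a co-receptor that presents ligand, TGF-beta 2 in particular. TGFBR1 phosphorylates SMAD2 and SMAD3, which join SMAD4 and enter the nucleus, and SMAD7 is an inhibitory SMAD that the pathway itself induces. In epithelial cells the pathway is known for growth arrest, matrix production and the epithelial-mesenchymal transition, and in vessels TGF-beta acts on endothelial cells and their supporting cells.

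Facts of the series as a whole bear on all values. FPKM are fragment counts scaled to gene length and to the depth of the library. The totals of reads recovered from the spacing of the values ran from 35681162 to 45738439 in sgH2AC19 and from 36255807 to 40570759 in sgControl. H2AC19 was listed at 0 FPKM in all 6 libraries, as was its near-identical copy H2AC18, so the target checks neither the knockout nor the labels. The second principal component set sgH2AC19 replicate 3, at −16.0, apart from sgH2AC19 replicates 1 and 2, at 8.09 and 8.32. All 7 epithelial markers searched reached 1 FPKM in at least 1 library, with a summed level of 965 to 1012 FPKM in sgH2AC19 and 835 to 865 FPKM in sgControl. Of 7 endothelial markers 0 reached 1 FPKM in any library, and their sum was at most 0.269 FPKM. Of 8 fibroblast markers 3 (LUM, THY1 and COL1A1) did, with a sum of 6.65 to 7.24 FPKM in sgH2AC19 and 4.47 to 5.05 FPKM in sgControl, while COL1A2 was at most 0.00518 FPKM. Of 7 leukocyte markers 1 (CD14) did, and CD3E and TYROBP were at 0 in all libraries. The epithelial and fibroblast sums were higher in sgH2AC19, although KRT7, KRT19 and CLDN4 were lower there. Among the fibroblast markers the ranges of THY1, PDGFRA, PDGFRB and DCN overlapped. The part of these markers in the results below was not tested. In such bulk libraries fewer cells that express a gene and less RNA per cell cannot be told apart.

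Promoters are shown for both receptor kinase genes, which rose, and for SMAD3, the 1 member that fell. These are stretches before the RefSeq start sites (GRCh38.p14), outside any exon of GENCODE 29, with each CCAAT box and each GC box (GGGCGG), on either strand, in capitals. The TGFBR1 stretch is chr9:99104863-99105088 (plus strand), that of TGFBR2 is chr3:30606106-30606355 (plus strand), upstream of the first annotated GENCODE exon at 30606502, and that of SMAD3 is chr15:67065352-67065601 (plus strand).
TGFBR1: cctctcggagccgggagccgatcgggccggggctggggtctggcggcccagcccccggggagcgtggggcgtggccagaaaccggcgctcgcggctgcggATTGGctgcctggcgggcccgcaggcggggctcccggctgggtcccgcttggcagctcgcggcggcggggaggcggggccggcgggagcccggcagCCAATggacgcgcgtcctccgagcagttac
TGFBR2: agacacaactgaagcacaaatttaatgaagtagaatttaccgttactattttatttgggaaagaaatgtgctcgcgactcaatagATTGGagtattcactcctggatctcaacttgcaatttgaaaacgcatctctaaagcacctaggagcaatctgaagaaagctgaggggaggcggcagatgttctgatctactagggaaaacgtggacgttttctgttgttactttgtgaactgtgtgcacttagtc
SMAD3: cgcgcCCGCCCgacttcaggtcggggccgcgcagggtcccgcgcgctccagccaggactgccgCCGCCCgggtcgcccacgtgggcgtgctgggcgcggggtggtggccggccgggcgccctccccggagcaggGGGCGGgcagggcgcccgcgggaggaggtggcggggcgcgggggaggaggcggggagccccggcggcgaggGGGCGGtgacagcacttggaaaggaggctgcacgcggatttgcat

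All 10 members matched an entry among 35116 RefSeq promoter windows of 300 bases. The whole TGFBR1 window held 2 CCAAT boxes and 0 GC boxes, the TGFBR2 window 1 CCAAT box and 0 GC boxes, and the SMAD3 window 5 GC boxes and 0 CCAAT boxes. A CCAAT box was also present in the windows of SMAD2 and SMAD4, and 34.6% of all windows hold one, while 45.0% hold a GC box. SMAD2, which rose, also had 3 GC boxes, and TGFB2, which rose, had 0 of either kind. GC boxes were present in the windows of TGFB1 (7), TGFBR3 (2) and SMAD4 (2) too. The boxes therefore do not separate members that rose from the 1 that fell. Base composition differed widely between the receptor promoters, at 78.7% G and C for TGFBR1 and 42.3% for TGFBR2, where the median window has 58.7%. The SMAD-binding palindrome GTCTAGAC, known from the SMAD7 promoter, was in 0 of the 10 windows, that of SMAD7 included, and in 0.202% of all. The shorter SMAD site CAGAC was in the windows of TGFB2 (2), TGFB3 (2), TGFBR1 (1), SMAD3 (1) and SMAD7 (2). Of all windows 45.3% hold that shorter site. These matches describe letters in a window, and whether a factor binds there was not tested.

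Among the members TGFBR1 moved furthest. TGFBR1 and TGFBR2 rose in sgH2AC19 by 1.75-fold and 1.47-fold in mean FPKM, SMAD2 rose by 1.53-fold, TGFB2 rose by 1.29-fold, and SMAD3 fell to 0.735 of its sgControl level. Of the 10 members 9 passed the filter of at least 1 FPKM in at least 3 libraries, all through both groups, and of these 4 rose, 1 fell and 4 were not called (limma on log2(FPKM + 1), with p adjusted by Benjamini-Hochberg over 12871 genes and a threshold of 0.05). By the same rule 23.1% of all genes tested were called, 12.0% up and 11.0% down. The median log2 fold change was 0.15 over the 9 members and −0.01 over all genes tested. The groups did not overlap for 8 of the 9 members, 6 with sgH2AC19 above and 2 with it below, against 43.2% of all genes tested, 21.5% above and 21.7% below.

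**Figure D1:**
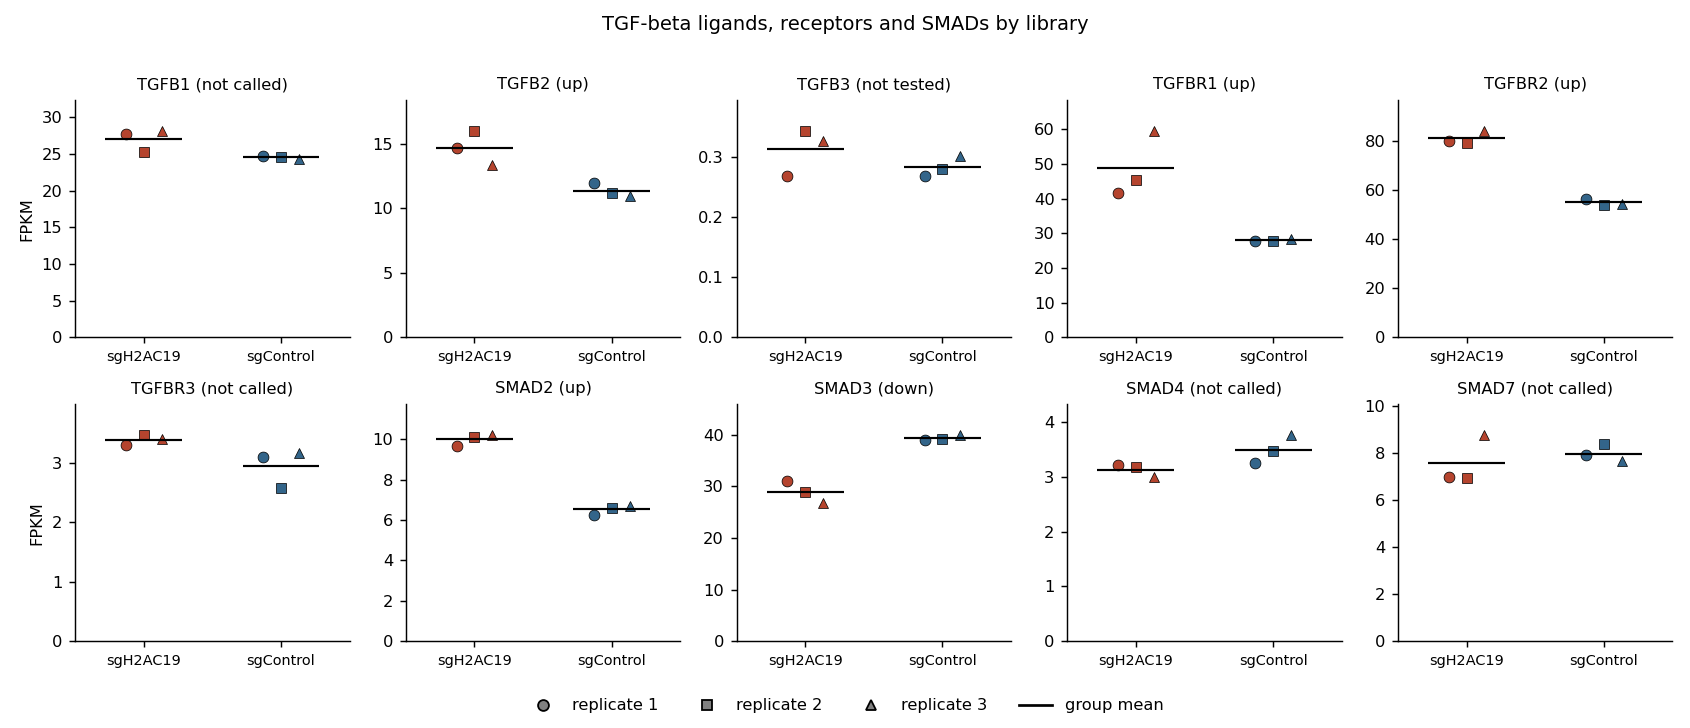
FPKM of the 10 members in each library, with sgH2AC19 (red) left of sgControl (blue), 1 symbol per replicate, the group mean as a line, and each axis starting at 0. The 3 sgH2AC19 libraries lie above the 3 sgControl libraries for TGFBR1, TGFBR2, SMAD2 and TGFB2 and below them for SMAD3, and sgH2AC19 replicate 3 stands highest of all libraries for TGFB1, TGFBR1, TGFBR2, SMAD2 and SMAD7.

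Of the ligands, TGFB1 was the most abundant, TGFB2 was lower and TGFB3 was below the filter. TGFB1 (ENSG00000105329), the main isoform of most tissues, was at 27.7, 25.2 and 28.1 FPKM in sgH2AC19 replicates 1 to 3, and at 24.8, 24.6 and 24.4 FPKM in sgControl replicates 1 to 3. The groups did not overlap, but the lowest sgH2AC19 library was within 1 FPKM of the highest sgControl library. Means were 27.0 ± 1.55 FPKM in sgH2AC19 and 24.6 ± 0.211 FPKM in sgControl (SD, n = 3 each), and the difference was not called (log2 fold change 0.13, SE 0.0509, limma adjusted p = 0.106). Without sgH2AC19 replicate 2, its lowest, it was called (log2 fold change 0.18, limma adjusted p = 0.0443). Its exons share 215 bases with the opposite strand gene HNRNPUL1, which was at 55.6 to 57.4 FPKM in sgH2AC19 and 53.6 to 56.6 FPKM in sgControl. Whether strand was used in counting is not given in the sources used here, so reads from those bases cannot be told apart.

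TGFB2 (ENSG00000092969), on chromosome 1 from 218346235 to 218444619 (plus strand, GRCh38), encodes the isoform that depends most on betaglycan for receptor binding. It was at 14.6, 15.96 and 13.3 FPKM in sgH2AC19 replicates 1 to 3, and at 11.9, 11.2 and 10.9 FPKM in sgControl replicates 1 to 3. Every sgH2AC19 library was above every sgControl library, with replicate 2 the highest of all. The rise was called (14.6 ± 1.31 FPKM in sgH2AC19 and 11.3 ± 0.516 FPKM in sgControl, SD, n = 3 each, log2 fold change 0.34, SE 0.0696, limma adjusted p = 0.0145). TGFB2 was no longer called if sgControl replicate 2 was left out (limma adjusted p = 0.0542), if sgControl replicate 3 was (0.0556), or if each gene with any FPKM above 0 was tested (0.0557). The noncoding gene TGFB2-OT1, which shares 1371 exon bases with TGFB2 on the same strand, was listed at 0 FPKM in each library.

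TGFB3 (ENSG00000119699) was at 0.268, 0.343 and 0.328 FPKM in sgH2AC19 and at 0.269, 0.281 and 0.302 FPKM in sgControl, which overlap. It did not pass the filter. Its values rest on 64 to 65 reads per library in sgH2AC19 and 51 to 64 in sgControl, and it made up 0.629% to 0.827% of the summed ligand FPKM in sgH2AC19 and 0.729% to 0.849% in sgControl. The balance of the other ligands, TGFB1 over TGFB2 in FPKM, was 1.89, 1.58 and 2.11 in sgH2AC19 and 2.08, 2.19 and 2.23 in sgControl, so the groups overlapped at sgH2AC19 replicate 3.

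The receptor genes were the most abundant class. TGFBR1 (ENSG00000106799), on chromosome 9 from 99104038 to 99154192 (plus strand), encodes ALK5, the type I serine/threonine kinase that activates SMAD2 and SMAD3. It was at 41.5, 45.4 and 59.4 FPKM in sgH2AC19 replicates 1 to 3, and at 27.6, 27.8 and 28.4 FPKM in sgControl replicates 1 to 3. The sgControl libraries lay within 1 FPKM of each other, all sgH2AC19 libraries were far above them, and sgH2AC19 replicate 3 stood well above its replicates. Means were 48.8 ± 9.42 FPKM in sgH2AC19 and 27.9 ± 0.427 FPKM in sgControl (SD, n = 3 each, log2 fold change 0.77, SE 0.119, limma adjusted p = 0.00544). Without sgH2AC19 replicate 3 the log2 fold change was 0.62 (limma adjusted p = 0.000752). Of the 1545 genes called up, 75 rose further than TGFBR1 on this scale.

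TGFBR2 (ENSG00000163513), on chromosome 3 from 30606502 to 30694142 (plus strand), encodes the ligand-binding type II kinase and had the highest FPKM of the 10 members in both groups. It was at 80.0, 79.3 and 84.1 FPKM in sgH2AC19 replicates 1 to 3, and at 56.6, 54.1 and 54.4 FPKM in sgControl replicates 1 to 3. Replicates were tight in both groups and the gap between them was several times their spread. The rise was called with the smallest adjusted p of the members (81.1 ± 2.58 FPKM in sgH2AC19 and 55.0 ± 1.36 FPKM in sgControl, SD, n = 3 each, log2 fold change 0.55, SE 0.0424, limma adjusted p = 0.000541). Its reads numbered 19387 to 25053 per library in sgH2AC19 and 14054 to 15126 in sgControl, so counting error is small beside the difference.

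TGFBR3 (ENSG00000069702), the betaglycan gene, was low. It was at 3.30, 3.47 and 3.41 FPKM in sgH2AC19 and at 3.11, 2.58 and 3.18 FPKM in sgControl, on 875 to 1294 reads per library over both groups. The groups did not overlap, sgControl replicate 2 was the lowest, and the difference was not called (log2 fold change 0.15, SE 0.0718, limma adjusted p = 0.162). Without sgControl replicate 2 the log2 fold change of TGFBR3 was 0.085. As a share of the summed receptor FPKM, TGFBR3 made up 2.32% to 2.71% in sgH2AC19 and 3.06% to 3.69% in sgControl. TGFBR2 over TGFBR1 in FPKM was 1.93, 1.75 and 1.41 in sgH2AC19 and 2.05, 1.94 and 1.91 in sgControl, with sgH2AC19 replicate 1 inside the range of sgControl. Both kinase genes thus stood higher in sgH2AC19, and their ratio was lowest in replicate 3.

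The receptor-activated SMAD genes moved in opposite directions. SMAD2 (ENSG00000175387), on chromosome 18 from 47808957 to 47931146 (minus strand), encodes a receptor-activated SMAD whose main isoform does not bind DNA by itself. It was at 9.68, 10.1 and 10.2 FPKM in sgH2AC19 replicates 1 to 3, and at 6.27, 6.59 and 6.71 FPKM in sgControl replicates 1 to 3. All 3 sgH2AC19 libraries were well above all sgControl libraries. The rise was called (9.997 ± 0.277 FPKM in sgH2AC19 and 6.52 ± 0.227 FPKM in sgControl, SD, n = 3 each, log2 fold change 0.55, SE 0.0474, limma adjusted p = 0.000837).

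SMAD3 (ENSG00000166949), on chromosome 15 from 67063763 to 67195195 (plus strand), encodes the receptor-activated SMAD that binds DNA directly. It was at 31.0, 28.9 and 26.8 FPKM in sgH2AC19 replicates 1 to 3, and at 39.0, 39.2 and 39.9 FPKM in sgControl replicates 1 to 3. Each sgH2AC19 library was below each sgControl library, with replicate 3 the lowest. The fall was called (28.9 ± 2.09 FPKM in sgH2AC19 and 39.4 ± 0.496 FPKM in sgControl, SD, n = 3 each, log2 fold change −0.43, SE 0.0568, limma adjusted p = 0.00296). Its exons share 182 bases with the opposite strand gene AC087482.1, which was at 0.126 to 0.191 FPKM in sgH2AC19 and 0.228 to 0.319 FPKM in sgControl.

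**Figure D2:**
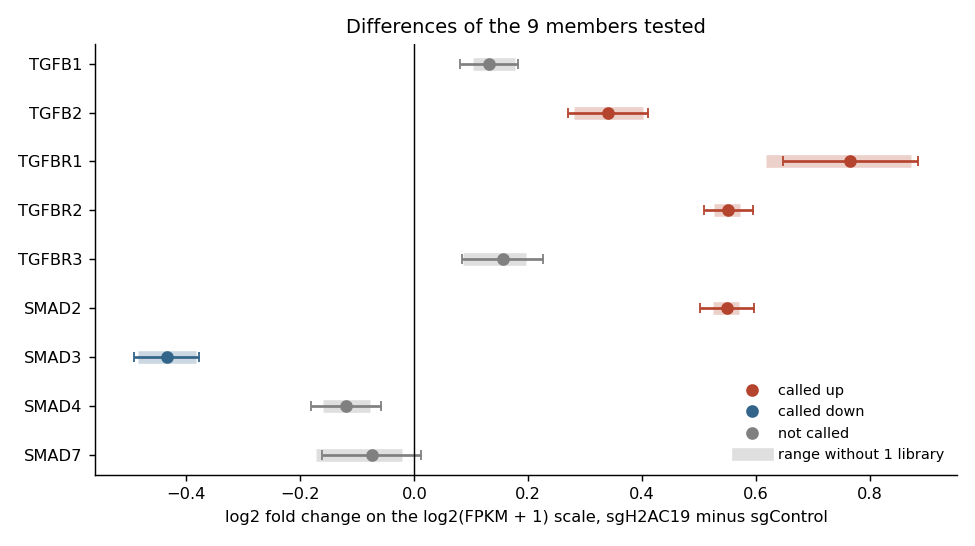
Log2 fold changes of the 9 members tested, sgH2AC19 minus sgControl on the log2(FPKM + 1) scale, with bars of 1 SE and shaded bands for the range over the 6 fits that leave out 1 library. TGFBR1 stands furthest above 0 at 0.77, with TGFBR2 and SMAD2 at 0.55, and SMAD3 alone among the called members lies below 0, at −0.43.

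The pair of receptor-activated SMADs therefore changed balance. SMAD3 over SMAD2 in FPKM was 3.20, 2.86 and 2.63 in sgH2AC19 and 6.23, 5.94 and 5.96 in sgControl. In reads the same ratio was 0.880, 0.786 and 0.723 in sgH2AC19 and 1.71, 1.63 and 1.64 in sgControl, so SMAD2 gave more reads than SMAD3 in each sgH2AC19 library and fewer in each sgControl library. The 2 scales differ because the FPKM of SMAD2 rest on a length of 36426 bases, and those of SMAD3 on 10011 bases. Which of the SMAD2 transcripts the reads came from was not analysed here. SMAD2 made up 19.02% to 20.9% of the summed FPKM of the 4 SMAD genes in sgH2AC19 and 11.1% to 11.5% in sgControl. These ratios follow from the calls of both genes and got no test of their own.

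SMAD4 (ENSG00000141646), the shared partner of the receptor-activated SMADs, was at 3.22, 3.19 and 3.00 FPKM in sgH2AC19 and at 3.25, 3.48 and 3.77 FPKM in sgControl. The groups did not overlap, by a margin smaller than the spread within either, and the difference was not called (log2 fold change −0.12, SE 0.0617, limma adjusted p = 0.200). Without sgControl replicate 3 it was −0.077. SMAD4 shares 967 exon bases with AC091551.1 on the same strand, which was listed at 0 in all libraries. SMAD7 (ENSG00000101665), the feedback inhibitor that blocks TGFBR1, was at 6.998, 6.92 and 8.76 FPKM in sgH2AC19 and at 7.90, 8.37 and 7.66 FPKM in sgControl. Here the groups overlapped, since sgH2AC19 replicates 1 and 2 were below all sgControl libraries and replicate 3 was above them (log2 fold change −0.07, SE 0.0869, limma adjusted p = 0.573). Without sgH2AC19 replicate 3 the log2 fold change of SMAD7 was −0.17 (limma adjusted p = 0.04997). SMAD2, SMAD7 and SMAD4 lie apart in this order on chromosome 18, SMAD7 from 48919853 to 48952052 and SMAD4 from 51028394 to 51085045. Of these genes SMAD2 alone was called.

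**Figure D3:**
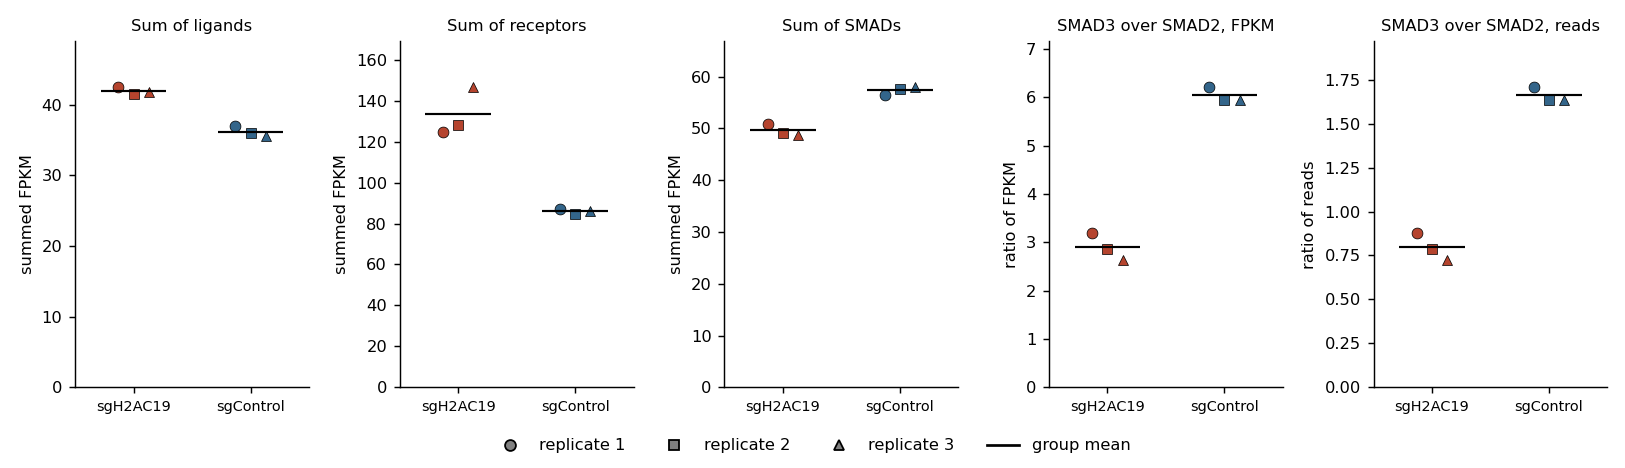
Summed FPKM of the 3 ligand, 3 receptor and 4 SMAD genes and the ratio of SMAD3 to SMAD2 in FPKM and in reads, per library, with sgH2AC19 (red) left of sgControl (blue), the group mean as a line and axes starting at 0. The receptor sum was 125 to 147 FPKM in sgH2AC19 and 84.5 to 87.3 FPKM in sgControl, and the SMAD3 to SMAD2 ratio of every sgH2AC19 library lies below every sgControl library.

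Summed over classes, ligands came to 41.98 ± 0.541 FPKM in sgH2AC19 and 36.2 ± 0.709 FPKM in sgControl, receptors to 133 ± 11.9 FPKM in sgH2AC19 and 85.9 ± 1.42 FPKM in sgControl, and SMADs to 49.6 ± 1.14 FPKM in sgH2AC19 and 57.4 ± 0.847 FPKM in sgControl (SD, n = 3 each). Each sum is led by 1 or 2 genes: TGFBR2 held 57.2% to 64.1% of the receptor FPKM in sgH2AC19 and 63.3% to 64.8% in sgControl. In sgH2AC19 the order of mean FPKM was TGFBR2, TGFBR1, SMAD3, TGFB1, TGFB2, SMAD2, SMAD7, TGFBR3, SMAD4 and TGFB3, and of neighbours in this order only SMAD3 and TGFB1 had ranges that overlapped. In sgControl it was TGFBR2, SMAD3, TGFBR1, TGFB1, TGFB2, SMAD7, SMAD2, SMAD4, TGFBR3 and TGFB3, with no overlap between neighbours. Thus TGFBR1 stood above SMAD3, SMAD2 above SMAD7 and TGFBR3 above SMAD4 in sgH2AC19, and each of these pairs had the reverse order in sgControl. Taken per length of the principal GENCODE transcript, which is 8769 bases for SMAD4 where its FPKM rest on 19606, SMAD4 stood above TGFBR3 and overlapped SMAD7 in both groups. On that scale SMAD7 and SMAD2 overlapped in sgControl, while TGFBR1 still stood above SMAD3 in sgH2AC19 (59.8 ± 11.5 against 46.3 ± 3.34 on the scale of FPKM) and below it in sgControl (34.3 ± 0.523 against 63.1 ± 0.795, SD, n = 3 each).

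The genes whose log2 values were most like those of TGFBR2 over the 6 libraries were RHOBTB1 (Pearson r 0.999), G3BP2 (0.999), a stress granule protein gene, and EPDR1 (0.998). The 6 libraries form 2 groups, so these r values mostly restate that all 4 genes differ between them. RHOBTB1 was at 9.31, 9.42 and 9.75 FPKM in sgH2AC19 and at 6.59, 6.23 and 6.40 FPKM in sgControl. The order of replicates was that of TGFBR2 within sgControl but not within sgH2AC19, where replicate 1 was lowest for RHOBTB1 and replicate 2 for TGFBR2.

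Other genes of the pathway were read in 9 lists of 175 genes, of which 118 were tested, 25 rose, 19 fell and 74 were not called, with a median log2 fold change of 0.03. These are 21.2% up and 16.1% down, against 12.0% and 11.0% of all genes tested, and the rises include COL1A1 and GATA2, which passed the filter through sgH2AC19 alone. The lists are small, and no list was tested against the other genes. In the list of LTBP family, matrix and activation genes, not all of which store or activate latent TGF-beta themselves, 13 of 21 were tested. Of these 5 rose (TGM2, LTBP1, LTBP2, FBN1 and ITGB1), 2 fell (PLAU and LTBP4) and 6 were not called, with a median of 0.14. LTBP1, which anchors latent TGF-beta in the matrix, was at 15.5, 14.3 and 18.1 FPKM in sgH2AC19 and at 10.2, 10.1 and 10.6 FPKM in sgControl (log2 fold change 0.58, SE 0.0812, limma adjusted p = 0.00368). TGM2, a transglutaminase that cross-links matrix proteins, was at 231, 216 and 244 FPKM in sgH2AC19 and at 145, 144 and 153 FPKM in sgControl (0.64, SE 0.0543, limma adjusted p = 0.000789). LTBP2 rose by 0.37 and the fibrillin gene FBN1 by 0.30 on the same scale. ITGB6, the beta chain of an integrin that releases TGF-beta in epithelia, was below the filter, at 0.729, 1.13 and 1.36 FPKM in sgH2AC19 and at 0.563, 0.472 and 0.405 FPKM in sgControl. LTBP1 was, like TGFBR1, highest in sgH2AC19 replicate 3, and without that library its log2 fold change was 0.49 (limma adjusted p = 0.00174). PLAU, the urokinase gene, fell by 0.38. The smaller changes of ITGB1 (0.14) and LTBP4 (−0.26) did not hold without 1 library, ITGB1 in each fit except that without sgH2AC19 replicate 1, and LTBP4 without sgH2AC19 replicate 1 or 2 or sgControl replicate 2 or 3 (limma adjusted p of 0.0551 to 0.148).

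Among 17 intracellular inhibitors of the pathway 16 were tested, and 2 rose, 4 fell and 10 were not called (median 0.03). For comparison, 12.0% of all genes tested rose and 11.0% fell, so the share of rises in this list was close to that of all genes. SMURF2, a ubiquitin ligase that acts on receptors and SMADs, was at 9.32, 9.94 and 10.0 FPKM in sgH2AC19 and at 14.6, 15.2 and 14.7 FPKM in sgControl (log2 fold change −0.56, SE 0.0468, limma adjusted p = 0.000781). SKI, a repressor of SMAD-driven transcription, was at 5.65, 5.56 and 5.41 FPKM in sgH2AC19 and at 3.84, 3.95 and 4.11 FPKM in sgControl (0.40, SE 0.0481, limma adjusted p = 0.00224). PMEPA1, a SMAD-binding inhibitor that TGF-beta induces, was at 47.5, 49.3 and 69.6 FPKM in sgH2AC19 and at 36.4, 39.5 and 40.0 FPKM in sgControl (0.49, SE 0.136, limma adjusted p = 0.0401). As with TGFBR1, replicate 3 was the highest of the sgH2AC19 libraries, and without it the log2 fold change of PMEPA1 was 0.32 (limma adjusted p = 0.00714). The rise of PMEPA1 was not called without sgControl replicate 1, 2 or 3 or sgH2AC19 replicate 2 (limma adjusted p of 0.0555 to 0.113), nor with all genes above 0 FPKM (0.153) or with median-ratio scaling (0.0503). SKIL, another SMAD repressor, was not called (0.24, limma adjusted p = 0.0663), and was called without sgH2AC19 replicate 1 (0.0124). SMURF1 at −0.19 and FKBP1A, a TGFBR1-binding immunophilin, at −0.16 were called as falls and lost the call in 5 of the 6 fits without 1 library, the exception being sgH2AC19 replicate 3 (limma adjusted p of 0.0576 to 0.0958 in those fits). PPP1R15A, a phosphatase subunit gene, was called as a fall of 0.54 on the log2 scale and lost the call without any library but sgControl replicate 3 (limma adjusted p of 0.0507 to 0.0984).

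The epithelial target genes that TGF-beta is known to induce moved both ways. Of 46 listed 37 were tested, and 10 rose, 9 fell and 18 were not called, with a median log2 fold change of −0.03. Their shares were 27.0% up and 24.3% down, against 12.0% and 11.0% of all genes tested. Without COL1A1, which passed the filter through sgH2AC19 alone, the rises were 9. ITGA2, a collagen-binding integrin gene, was at 50.1, 49.7 and 47.2 FPKM in sgH2AC19 and at 89.4, 91.2 and 92.5 FPKM in sgControl (log2 fold change −0.88, SE 0.0413, limma adjusted p = 0.000114). HMGA2, a chromatin protein gene, was at 13.1, 12.04 and 11.5 FPKM in sgH2AC19 and at 23.9, 24.05 and 24.8 FPKM in sgControl (−0.94, SE 0.0542, limma adjusted p = 0.000243). For both genes all sgH2AC19 libraries lay well below all sgControl libraries. Among those that rose, TSC22D1, a leucine zipper protein gene first found as TGF-beta induced, was at 29.1, 27.6 and 29.4 FPKM in sgH2AC19 and at 18.7, 18.9 and 18.8 FPKM in sgControl (0.58, SE 0.0427, limma adjusted p = 0.000429). CCN2, the connective tissue growth factor gene, was not called (0.10, limma adjusted p = 0.334, and 0.039 without sgControl replicate 2).

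**Figure D4:**
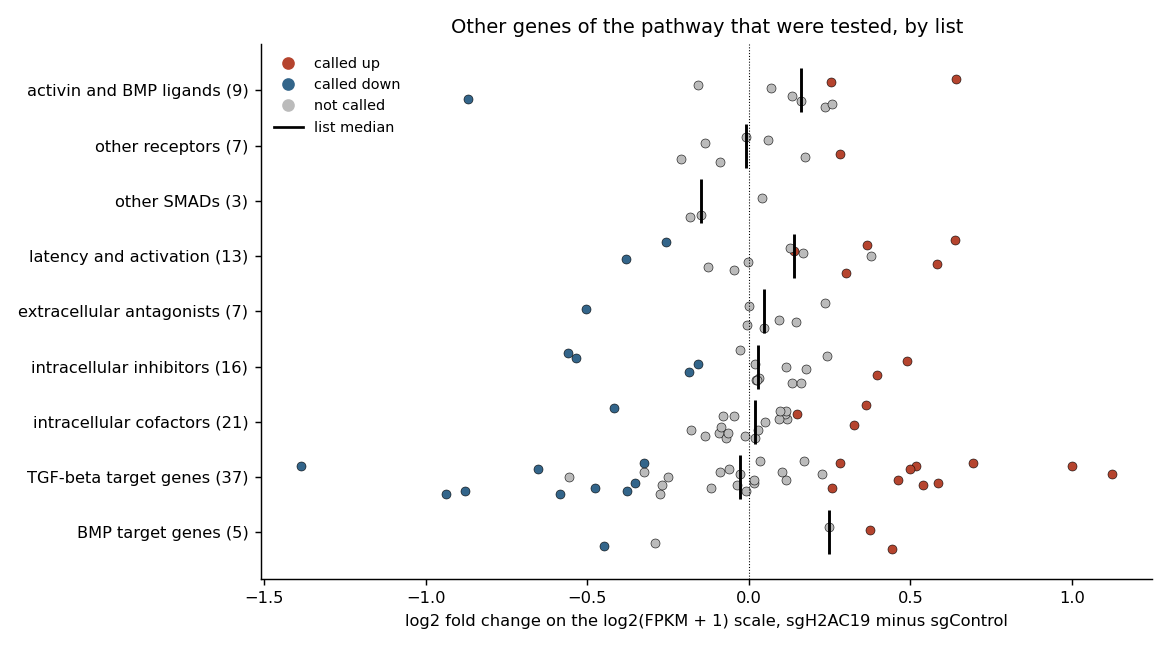
Log2 fold changes of the 118 tested pathway genes, sgH2AC19 minus sgControl on the log2(FPKM + 1) scale, 1 point per gene, by list, with called rises in red, called falls in blue and other genes in grey, the number tested in brackets and the list median as a vertical bar. The TGF-beta target genes spread widely in both directions, and their median lies at −0.03.

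The related activin and bone morphogenetic protein (BMP) genes, with other ligands of the wider family, were read in 4 lists. Each list had at most 9 genes tested, and over all genes tested 12.0% rose and 11.0% fell. Of 24 ligand genes 9 were tested, and INHBB (0.64, limma adjusted p = 0.00636) and GDF11 (0.25, limma adjusted p = 0.0258) rose and GDF15 (−0.87, limma adjusted p = 0.00509) fell. GDF15 is listed as a member of the wider family, not as an activin or BMP ligand. INHBB, an activin chain gene, was at 6.04, 6.24 and 6.82 FPKM in sgH2AC19 and at 4.16, 3.00 and 4.09 FPKM in sgControl. INHBA, the other main activin chain, was at most 0.291 FPKM in sgH2AC19 and 0.346 FPKM in sgControl. BMPR2, a type II BMP receptor gene, rose by 0.28 as 1 of 7 other receptors tested, and 6 were not called. Of the other SMAD genes 0 of 3 tested were called, and the inhibitory SMAD6 was at 5.00, 4.49 and 6.27 FPKM in sgH2AC19 and at 5.74, 5.35 and 6.63 FPKM in sgControl (−0.15, limma adjusted p = 0.379). Without 1 library the value of SMAD6 ran from −0.26 to −0.061. Of 5 BMP target genes tested ID1 (0.38) and GATA2 (0.44) rose, ID2 (−0.45) fell and 2 were not called. GATA2 reached the filter of 1 FPKM in sgH2AC19 alone, so without it the list has 1 rise, and without any 1 sgH2AC19 library it was not tested. The calls of BMPR2 (without any sgControl replicate or sgH2AC19 replicate 2), GDF11 (without sgH2AC19 replicate 1 or 2 or sgControl replicate 2 or 3), ID1 (without sgH2AC19 replicate 1 or sgControl replicate 1 or 2) and GATA2 (without sgControl replicate 1 or 2) were lost, at limma adjusted p of 0.0527 to 0.0897.

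Of 17 extracellular antagonists 7 were tested, 1 fell (14.3%, against 11.0% of all genes tested) and 6 were not called. The one was FST, which encodes the activin antagonist follistatin, at 2.23, 2.37 and 1.87 FPKM in sgH2AC19 and at 3.55, 3.72 and 3.16 FPKM in sgControl (−0.50, SE 0.0819, limma adjusted p = 0.00643). Of 22 intracellular cofactors 21 were tested, and 3 rose, 1 fell and 17 were not called. Their shares were 14.3% up and 4.76% down, against 12.0% and 11.0% of all genes tested. RUNX2, a SMAD partner in transcription, was at 0.993, 1.22 and 1.01 FPKM in sgH2AC19 and at 1.63, 1.76 and 1.92 FPKM in sgControl (−0.42, limma adjusted p = 0.0115). RUNX3 at 0.32, TAB1, an activator of the kinase TAK1, at 0.36 and the deubiquitinase gene USP9X, whose product acts on SMAD4, at 0.15 were called as rises. Each of these 3 lost the call in at least 4 fits without 1 library (limma adjusted p of 0.054 to 0.132), RUNX3 without sgH2AC19 replicate 1 or 3 or sgControl replicate 1 or 2, TAB1 without sgH2AC19 replicate 1 or 2 or sgControl replicate 1 or 2, and USP9X without any library but sgH2AC19 replicate 3.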

How the data were processed

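RNA of A549 cells was sequenced in 3 sgH2AC19 and 3 sgControl libraries (SMARTer chemistry, per the labels' protocols). The deposited table holds FPKM computed by the authors, per the file headers, in 1 column per library. No aligner or counter is given in the sources used here. The submitters' processing notes name the mouse builds GRCm38 and mm10, although all 62700 IDs matched human Ensembl genes. Columns headed sgNC were read as the sgControl libraries, and 0 columns were left unused.

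The 12871 genes that reached 1 FPKM in 3 or more libraries were tested on log2(FPKM + 1) with limma 3.58.1 under R 4.3.3, with a trended prior variance, two-sided and adjusted by Benjamini-Hochberg at 0.05. Fold changes on this scale understate those of low genes. The deposited FPKM step by the worth of 1 read, which depends on gene length. With GENCODE 29 lengths, or the smallest length that fitted, 12861 of the genes tested came out as whole reads within 0.001 reads (more in proportion above 100000 reads), and the reads printed are these. The test was also run on simulated counts whose spread was set alike in both groups, with no outlying library. That run does not show how the test behaves with a library such as sgH2AC19 replicate 3. Python 3.11.15 did the other steps.

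The members and lists were chosen with earlier results of these data known. Named were the members, up to 4 called genes per list with the smallest adjusted p, 8 pathway genes whatever their values, and the 3 genes most like the member with the smallest adjusted p. ITGB1, PLAU, LTBP4, PPP1R15A and COL1A1 were named after their values were seen. Some genes that the rule names are not reported here. The alternatives were 2 scalings, 2 filters, a pseudocount of 0.1, the replicate number as a block and leaving out each library. Chosen after seeing the data were voom on the recovered reads and levels per principal transcript.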

Additional observations from a re-analysis of the deposited data

How the results depend on the processing

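No member and no pathway gene named in the text changed direction in any fit that held it. GATA2 was below the filter without any 1 sgH2AC19 library and with a mean of at least 1 FPKM, and COL1A1 was not refitted. Of 117 refitted values of the members 112 kept their side of the threshold. Without 1 library, log2 fold changes ran from 0.62 to 0.87 for TGFBR1, 0.53 to 0.57 for TGFBR2, 0.52 to 0.57 for SMAD2 and −0.48 to −0.38 for SMAD3, all called. Those of TGFB2 ran from 0.28 to 0.40, of TGFB1 from 0.10 to 0.18 and of SMAD7 from −0.17 to −0.022. With every gene above 0 FPKM (36938) in the fit, TGFB2, at 0.34, was not called. Members called ranged from 4 to 6 without 1 library, 3 to 5 of them up and 1 to 2 down. In all, 2967 genes were called, against 1553 (900 up, 653 down) with every gene above 0 FPKM and 1513 to 3429 without 1 library (904 to 1784 up, 609 to 1645 down). The count was 1663, 1513 and 1632 without sgControl replicate 1, 2 or 3 and 1965 without sgH2AC19 replicate 2. It was 2135 without sgH2AC19 replicate 1 and rose to 3429 without sgH2AC19 replicate 3. Of the pathway lists 44 genes were called, against 25 (14 up, 11 down) with every gene above 0 FPKM and 25 to 46 without 1 library (14 to 25 up, 11 to 21 down), the low counts being 25 without sgControl replicate 2 and 26 without sgH2AC19 replicate 2. All these fits have fewer libraries or more genes tested, including the fit without sgH2AC19 replicate 3, where more genes were called. With voom on the recovered reads 3535 genes were called (1813 up, 1722 down), more than in the fits above. Of the pathway lists voom called 54 genes (30 up, 24 down), and of the members 5 (4 up, 1 down). The cause of the differing counts was not tested.

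With the replicate number as a block 2729 genes were called (1406 up, 1323 down). No member's call changed, SKIL was called (limma adjusted p = 0.0451), and GDF11, SMURF1, USP9X, ITGB1 and LTBP4 were not. The labels do not say whether the numbers pair the samples. Deviations of same-numbered libraries correlated at 0.0524, 0.0346 and 0.0602, and each sgH2AC19 library correlated best with its own number. Values this small cannot decide whether replicates were paired. With every gene above 0 FPKM, PMEPA1, BMPR2, GDF11, ID1, ID2, GATA2, TAB1, RUNX3, USP9X, SMURF1, ITGB1, LTBP4, PLAU and PPP1R15A were not called. ITGB1 was not called under either scaling (limma adjusted p of 0.0646 and 0.0557). Scaling moved member means by −0.0929% to 0.311%, less than 1 SD each. Depth limits TGFB3 most, with 51 to 65 reads per library.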
